A study of Mus musculus with 6 samples.

Results

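Genes of serine synthesis, folate-bound one-carbon transfer and nucleotide synthesis were followed in a mouse melanoma line with and without a guide RNA against Ndufs4. The set holds 34 genes, named by their place in these pathways and not by any measured value, out of 22535 gene rows in the deposited table. Of the 34, 33 had a mean of at least 1 CPM (a gene's reads scaled to a fixed total of reads in genes) over the 6 libraries and could be tested, among 11063 genes tested in all. The exception was Mthfd2l.

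Polyadenylated RNA was sequenced from B16-BL6 cells, an invasive subline of B16 melanoma, without keeping the strand. The 3 sgNDUFS4 libraries came from cells with a guide against Ndufs4, a subunit gene of respiratory complex I, and the 3 sgControl libraries from cells with a control guide. All cells grew in DMEM with 10% fetal bovine serum and 1 mM sodium pyruvate and penicillin-streptomycin and were lysed at about 70% confluence, and the series asks which transcriptional changes accompany the immunogenicity of the sgNDUFS4 cells. The labels do not say whether a cell line is a clone or a pool, nor whether replicates are separate cultures, so p-values reflect how far these libraries scatter, possibly for technical reasons alone, and the guide cannot be told apart from other differences between the lines.

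Libraries held 20090607 to 25947374 reads. Ndufs4 was at 15.0, 15.98 and 16.8 CPM in sgNDUFS4, against 54.3, 55.05 and 52.4 CPM in sgControl. The melanocyte genes Pmel, Tyrp1 and Dct averaged 5507, 4869 and 3331 CPM in sgNDUFS4 and 4358, 5408 and 4130 CPM in sgControl, and of 6 melanocyte markers 2 rose and 4 fell, whereas all 4 endothelial markers listed were at 0 in every library, as were Dcn and Lum of 5 fibroblast markers and Cd3e of the leukocyte markers. The summed CPM of the fibroblast list ranged from 41.4 to 46.1 in sgNDUFS4 and from 41.8 to 44.1 in sgControl. Most of it was Col1a2, at means of 33.3 CPM in sgNDUFS4 and 31.5 CPM in sgControl, with lower Col1a1 and Pdgfra. The sum of the leukocyte list ranged from 0.308 to 3.06 in sgNDUFS4 and from 1.40 to 1.66 in sgControl. It leaves out Itgam, whose symbol occurred more than once.

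Cells build serine from a glycolytic intermediate, and serine then gives its side-chain carbon to tetrahydrofolate, either in the mitochondrion or in the cytosol. The mitochondrial branch oxidises that carbon or exports it as formate, and the cytosolic branch spends it on purines, on thymidylate and on remethylation of homocysteine to methionine. Purines are assembled on phosphoribosyl pyrophosphate (PRPP) as inosine monophosphate (IMP), and pyrimidines are made as uridine monophosphate (UMP), in a route whose dihydroorotate dehydrogenase step passes electrons to ubiquinone in the inner mitochondrial membrane. Proliferating tumour cells draw on both.

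Of the 33 genes tested, 9 rose, 13 fell and 11 did not pass (limma on log2(CPM + 0.5), two-sided, Benjamini-Hochberg adjusted p under 0.05 over all genes tested). The rises were 27.3% of the set, where 31.8% of all genes tested rose, and the falls were 39.4%, where 20.3% of all genes tested fell. Calls in either direction took 66.7% of the set and 52% of all genes tested. Changes were small: log2 fold changes, all on the log2(CPM + 0.5) scale, ran from -0.62 to 0.46 with a median absolute value of 0.17, beside 0.21 over all genes tested. The signed median was -0.0025 for the set and 0.06 for all genes tested. With TMM scaling, which moved the median of all genes to 0.0036, 6 members rose and 15 fell, where 2756 of all 11063 genes tested rose and 2850 fell. In 23 of the 33 every library of 1 group lay beyond every library of the other, as in 57.2% of all genes tested. Of these 23, 10 were higher in sgNDUFS4 (35% of all genes tested) and 13 were lower (22.2% of all genes tested). Summed over the 34 genes, the level was 6792, 6712 and 6534 CPM in sgNDUFS4 and 7115, 6983 and 6887 CPM in sgControl. Every sgNDUFS4 library lay below every sgControl library in that sum, to which Phgdh and Shmt2 contributed most. In bulk RNA, fewer cells of a state and less RNA per cell cannot be told apart.

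**Figure D1:**
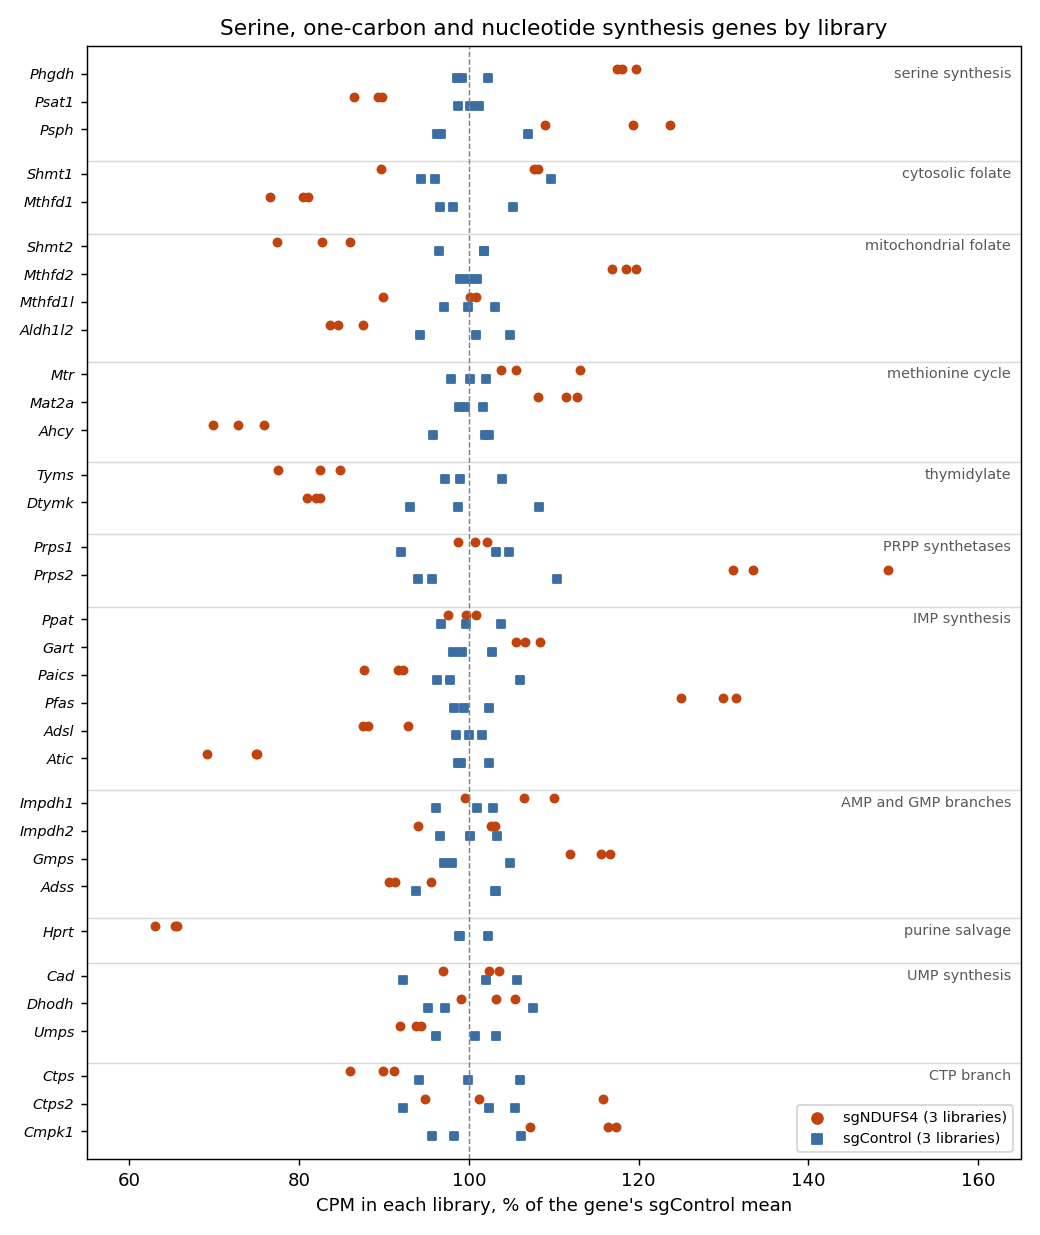
Each point is the CPM of a gene in a library, as a percentage of that gene's mean over the 3 sgControl libraries (x axis), for the 33 genes tested (y axis, by role). Orange circles are sgNDUFS4 libraries and blue squares sgControl libraries, and the circles lie clear to the left for Hprt, Atic, Ahcy and Mthfd1 and clear to the right for Prps2, Pfas, Phgdh and Mthfd2.

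In serine synthesis Phgdh, the NAD-dependent dehydrogenase of the entry step (chromosome 3, 98313170 to 98339990, minus strand), was at 794, 779 and 783 CPM in sgNDUFS4, against 657, 654 and 678 CPM in sgControl. The groups lay far apart for a gene whose replicates differed so little, and Phgdh rose by 0.24 on the log2 scale (SE 0.028, limma adjusted p = 5.3e-08). The 50 nearest tested genes on chromosome 3 had a median log2 fold change of 0.28, and with each gene centred on its neighbours Phgdh was at -0.045 (adjusted p = 0.27). Psat1, the transaminase of the next step (chromosome 19, 15904678 to 15947337), averaged 379 ± 7.80 CPM in sgNDUFS4 and 428 ± 5.37 CPM in sgControl (SD, n = 3 each) and fell by 0.18 on the log2 scale (limma adjusted p = 3.6e-05). Its level lay below every sgControl library, whereas those of Phgdh and Psph lay above. After neighbour centring Psat1 was at -0.10 (adjusted p = 0.038), the same sign as Phgdh, so the contrast between the first steps did not hold there. Psph, the phosphatase that releases free serine (chromosome 5, 129765558 to 129787449), was at 31.2, 27.5 and 30.1 CPM in sgNDUFS4 and at 24.4, 24.3 and 26.98 CPM in sgControl, a rise of 0.23 on the log2 scale (limma adjusted p = 0.022). The groups almost met, at 27.5 CPM in sgNDUFS4 and 26.98 CPM in sgControl. The call was lost under TMM scaling, at 0.17 (adjusted p = 0.086), and in 4 of the 6 fits with a library left out. Of the exon bases of Psph, 10.4% are shared with Cct6a on the other strand.

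In the mitochondrial folate branch 1 gene rose, 2 fell and 1 did not pass. Shmt2, which moves the carbon of serine onto folate (chromosome 10, 127517123 to 127522444), was at 618, 594 and 556 CPM in sgNDUFS4, against 731, 731 and 693 CPM in sgControl. All sgNDUFS4 values were lower, and Shmt2 fell by 0.29 on the log2 scale (SE 0.034, limma adjusted p = 1.1e-07). Mthfd2, the dehydrogenase and cyclohydrolase that takes the product of Shmt2 onward (chromosome 6, 83305691 to 83325908), was at 308, 305 and 301 CPM in sgNDUFS4, against 260.1, 255 and 258 CPM in sgControl, and rose by 0.24 (SE 0.033, limma adjusted p = 9.7e-07). Consecutive steps of the branch thus moved in opposite directions. The 50 nearest tested genes had medians of -0.02 for Shmt2 and 0.04 for Mthfd2, and after neighbour centring the pair were at -0.25 and 0.20 (adjusted p = 2.8e-05 and 0.00012). Mthfd1l, the synthetase that frees formate, was at 314, 312 and 280.1 CPM in sgNDUFS4 and at 321, 303 and 311 CPM in sgControl. Its groups overlapped, and its log2 fold change was -0.05 with a 95% interval from -0.13 to 0.04 (limma adjusted p = 0.34), while TMM scaling and neighbour centring called it lower. Aldh1l2, which oxidises formyltetrahydrofolate to carbon dioxide and yields NADPH (chromosome 10, 83487450 to 83534140), was at 58.5, 55.9 and 56.5 CPM in sgNDUFS4, against 63.0, 70.1 and 67.4 CPM in sgControl. It fell by 0.23 (limma adjusted p = 0.0015). Of its exon bases 14.1% are shared with D10Wsu102e on the other strand, which averaged 33.1 CPM, so its reads cannot be fully told from those of that gene.

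Mthfd2l, the paralog of Mthfd2, was hardly expressed, with 7, 8 and 23 reads in sgNDUFS4 and 21, 24 and 20 reads in sgControl. That is 0.271, 0.335 and 0.886 CPM in sgNDUFS4, against 1.05, 1.01 and 0.898 CPM in sgControl, where 3 reads correspond to between 0.116 and 0.149 CPM. The third sgNDUFS4 library sat beside the sgControl libraries, so the lower mean rested on the other two.

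In the cytosolic branch Mthfd1, the trifunctional enzyme that turns formate into the folate forms used for purines and thymidylate (chromosome 12, 76255298 to 76319803), was at 238, 240.3 and 227 CPM in sgNDUFS4, against 312, 286 and 291 CPM in sgControl. Every sgNDUFS4 library was lower, and it fell by 0.33 (SE 0.038, limma adjusted p = 5.4e-08). Shmt1, the cytosolic counterpart of Shmt2, was at 66.8, 66.5 and 55.4 CPM in sgNDUFS4 and at 67.7, 59.3 and 58.3 CPM in sgControl. The groups overlapped, with a 95% interval of the log2 fold change from -0.12 to 0.17 (limma adjusted p = 0.79), and neighbour centring called Shmt1 lower at -0.21 (adjusted p = 0.026).

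Around the methionine cycle, Ahcy, which clears the S-adenosylhomocysteine left by methylation reactions (chromosome 2, 155059310 to 155074497), was at 262, 252 and 242 CPM in sgNDUFS4, against 354, 353 and 331 CPM in sgControl. This fall of 0.46 (SE 0.037, limma adjusted p = 1.1e-10) was the second largest of the set. Mat2a, which makes the methyl donor S-adenosylmethionine, averaged 414 ± 8.89 CPM in sgNDUFS4 and 374 ± 5.60 CPM in sgControl (SD, n = 3 each) and rose by 0.15 (limma adjusted p = 0.00032). Its 50 nearest tested genes had a median of 0.11, and after neighbour centring it was at 0.05 (adjusted p = 0.32). Mat2a shares 11.3% of its exon bases with Particl on the other strand. Mtr, methionine synthase, was at 30.1, 29.6 and 32.3 CPM in sgNDUFS4 and at 27.9, 29.1 and 28.6 CPM in sgControl. Its groups did not overlap, but its log2 fold change of 0.10 did not pass (95% interval -0.05 to 0.26, limma adjusted p = 0.27).

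Both genes of thymidylate supply fell. Tyms, thymidylate synthase, which consumes a folate carbon to methylate dUMP (chromosome 5, 30058202 to 30073617), was at 74.2, 81.2 and 78.9 CPM in sgNDUFS4, against 94.8, 99.4 and 93.0 CPM in sgControl, and fell by 0.29 (SE 0.050, limma adjusted p = 2.7e-05). Dtymk, the kinase that follows (chromosome 1, 93792576 to 93801934), was at 72.1, 73.1 and 73.5 CPM in sgNDUFS4, against 88.0, 96.5 and 83.0 CPM in sgControl. It fell by 0.29 (limma adjusted p = 8.6e-05), with neighbours at a median of -0.15, and was at -0.12 after neighbour centring (adjusted p = 0.095). Proliferation markers moved in the same libraries: of 13 listed, 10 fell (76.9%) and 1 rose (7.69%), where 20.3% of all genes tested fell and 31.8% rose. Their sum was 5292, 5283 and 5339 CPM in sgNDUFS4, against 6336, 6352 and 6283 CPM in sgControl. The part of proliferation in the falls of Tyms, Dtymk and the other members that fell was not tested.

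**Figure D2:**
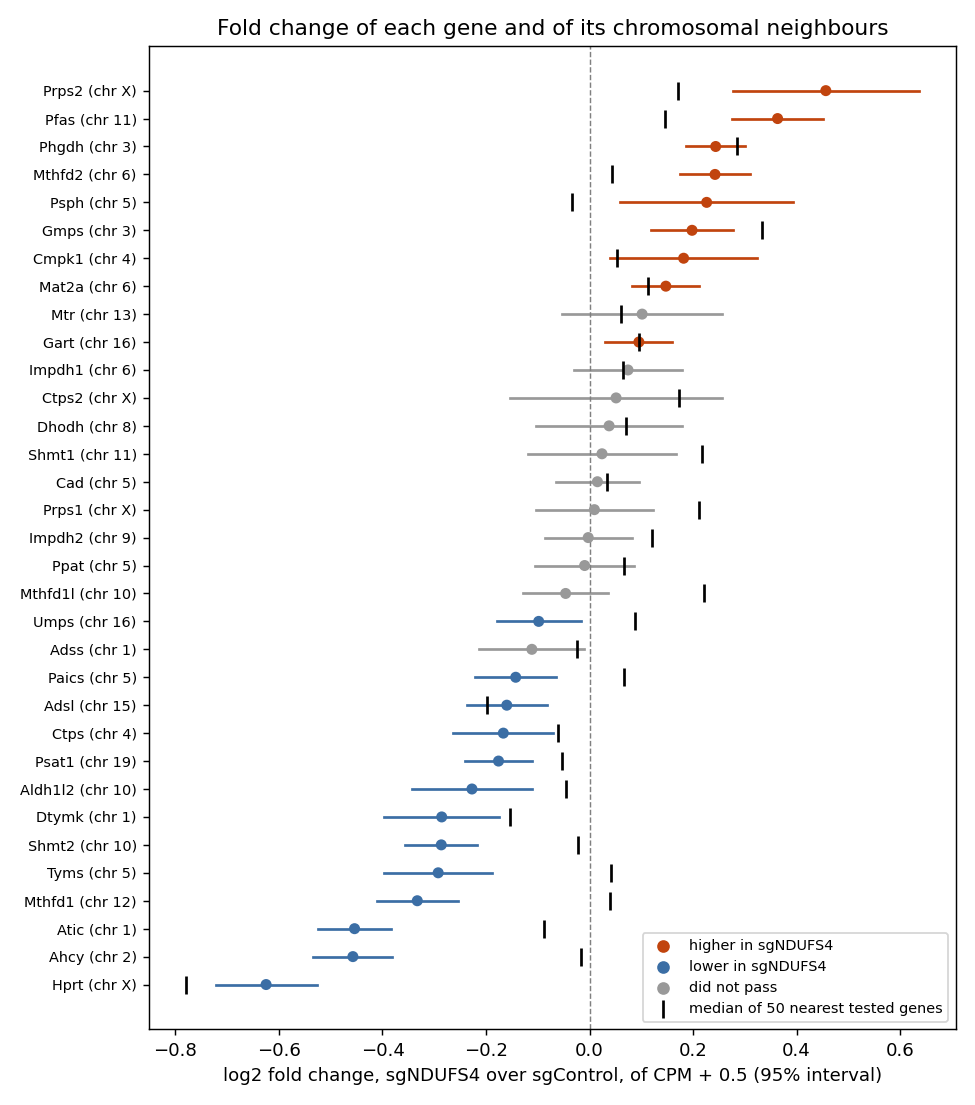
Points are log2 fold changes of CPM + 0.5, sgNDUFS4 over sgControl (x axis), with 95% intervals from limma over 3 libraries a group, for the 33 genes tested (y axis). Orange marks rises, blue falls and grey genes that did not pass, and the black tick is the median of the 50 nearest tested genes, which lies near the point for Phgdh, Gart and Adsl and far from it for Ahcy, Atic and Mthfd1.

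PRPP, the sugar phosphate on which purines are built and to which orotate is joined, is made by synthetases encoded on chromosome X. Prps2 (chromosome X, 167346322 to 167382749) was at 28.5, 28.0 and 31.9 CPM in sgNDUFS4, against 23.6, 20.1 and 20.4 CPM in sgControl. It rose by 0.46 (SE 0.087, limma adjusted p = 9.5e-05), the largest rise of the set, and was at 0.28 after neighbour centring (adjusted p = 0.0094). Prps1 was at 74.4, 76.9 and 75.8 CPM in sgNDUFS4 and at 69.3, 77.8 and 78.9 CPM in sgControl. Its groups overlapped (log2 fold change 0.0094, 95% interval -0.10 to 0.12, limma adjusted p = 0.90), yet it lies among genes with a median of 0.21 and neighbour centring called it lower at -0.26 (adjusted p = 0.00058). The table also lists the similar genes Prps1l1 and Prps1l3, with which reads of Prps1 may be shared.

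The 6 enzymes from PRPP to IMP included 2 that rose, 3 that fell and 1 that did not pass. Ppat, the amidotransferase of the committed step, was at 100.9, 97.6 and 99.8 CPM in sgNDUFS4 and at 103.9, 99.7 and 96.8 CPM in sgControl, and the groups overlapped (95% interval of the log2 fold change -0.10 to 0.09, limma adjusted p = 0.88). Gart, which catalyses several early steps, averaged 408 ± 5.40 CPM in sgNDUFS4 and 382 ± 9.01 CPM in sgControl (SD, n = 3 each), a rise of 0.10 (limma adjusted p = 0.013) that was lost under TMM scaling at 0.04 (adjusted p = 0.37). Of the exon bases of Gart, 19.7% are shared with an antisense transcript, Gm15964. Pfas, which aminates the formylated intermediate (chromosome 11, 68985697 to 69008460), was at 145, 143 and 137 CPM in sgNDUFS4, against 108, 109 and 113 CPM in sgControl. The groups stood well apart, and Pfas rose by 0.36 (SE 0.043, limma adjusted p = 9.1e-08). After neighbour centring it was at 0.22 (adjusted p = 0.00063).

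The later steps to IMP were lower. Paics, with a carboxylase and a ligase activity (chromosome 5, 76951307 to 76967509), averaged 272 ± 7.39 CPM in sgNDUFS4 and 300.3 ± 15.8 CPM in sgControl (SD, n = 3 each) and fell by 0.14 (limma adjusted p = 0.0027), or by 0.23 after neighbour centring (adjusted p = 0.00010). Adsl, the lyase that also acts in AMP synthesis, averaged 192 ± 6.23 CPM in sgNDUFS4 and 215 ± 3.26 CPM in sgControl (SD, n = 3 each) and fell by 0.16 (limma adjusted p = 0.00086). Its neighbours on chromosome 15 had a median of -0.20, and after centring it was at 0.060 (adjusted p = 0.26). Atic, which adds the last folate carbon and closes the ring (chromosome 1, 71557150 to 71579631), was at 365, 365 and 337 CPM in sgNDUFS4, against 498, 480.2 and 482 CPM in sgControl. No other enzyme of this route moved as far: Atic fell by 0.45 (SE 0.034, limma adjusted p = 2.7e-11), and it was at -0.38 after centring (adjusted p = 4.3e-08).

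Ppat and Paics begin head to head on chromosome 5. Their RefSeq start sites on GRCm38.p6, 76951578 on the minus strand and 76951302 on the plus strand, are 276 bases apart, and the annotated exons of the pair share 272 bases, which unstranded reads cannot assign. Both windows, 250 bases before to 50 after the start, are shown because the pair begin close together while only Paics was called. Capitals mark CACGTG, the E-box bound by MYC and related factors. The windows are chr5:76951529-76951828 (minus strand) and chr5:76951052-76951351 (plus strand). They do not overlap, and the E-box of Paics lies within the annotated Ppat gene but outside the Ppat window.
Ppat: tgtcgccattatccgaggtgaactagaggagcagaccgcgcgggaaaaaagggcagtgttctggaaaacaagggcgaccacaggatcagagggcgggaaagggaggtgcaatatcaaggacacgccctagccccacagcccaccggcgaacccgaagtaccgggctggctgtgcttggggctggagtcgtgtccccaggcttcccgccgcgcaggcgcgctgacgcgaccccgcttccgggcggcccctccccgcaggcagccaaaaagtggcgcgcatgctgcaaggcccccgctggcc
Paics: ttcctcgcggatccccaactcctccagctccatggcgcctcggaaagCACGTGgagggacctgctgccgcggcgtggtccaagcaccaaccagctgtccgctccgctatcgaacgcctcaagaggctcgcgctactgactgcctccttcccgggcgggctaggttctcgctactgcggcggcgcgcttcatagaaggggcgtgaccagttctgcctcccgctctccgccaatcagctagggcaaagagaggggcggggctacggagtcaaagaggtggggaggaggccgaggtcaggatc

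Such a window was found in RefSeq for 31 of the 34 genes, some with several starts. CACGTG, which reads the same on both strands, occurred in the windows of Atic, Dtymk, Impdh2, Paics and Tyms, that is in 13.9% of 36 windows of the set and in 7.15% of all 32851 windows in the table. Among the 30 tested genes with a window, those with the letters included 4 that fell, 0 that rose and 1 that did not pass, and those without included 8 that fell, 8 that rose and 9 that did not pass. Over all genes tested that have a window, 19.6% of the 1063 with CACGTG fell and 31.6% rose, and 20.2% of the 7570 without it fell and 31.9% rose. After neighbour centring the fall of Dtymk was lost and Impdh2 was called lower at -0.14 (adjusted p = 0.014). The members with CACGTG are few, so the split is a description. The stretches around the E-box in the other four promoters are given because these genes make up the rest of that group, with 27 bases on each side and CACGTG in capitals.
Atic, chr1:71557122-71557181 (plus strand): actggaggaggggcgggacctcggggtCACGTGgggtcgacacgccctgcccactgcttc
Dtymk, chr1:93802050-93802109 (minus strand): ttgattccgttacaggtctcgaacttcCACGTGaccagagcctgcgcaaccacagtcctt
Impdh2, chr9:108560299-108560358 (plus strand): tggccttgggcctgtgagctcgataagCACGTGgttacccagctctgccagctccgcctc
Tyms, chr5:30073654-30073713 (minus strand): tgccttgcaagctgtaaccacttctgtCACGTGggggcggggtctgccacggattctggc
The first base of the E-box lay 7 bases before the start of Atic, 61 before that of Tyms, 110 before that of Impdh2, 148 before that of Dtymk and 203 before that of Paics. The core of the element bound by ATF4 with C/EBP partners, TGATGNAA on either strand, occurred in 2.78% of the windows of the set, only in that of Prps1, and in 3.97% of all windows. A match describes letters and is not a measured binding site.

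From IMP the route divides. Impdh2, a dehydrogenase that leads to GMP, was at 217, 216 and 198 CPM in sgNDUFS4 and at 218, 204 and 211 CPM in sgControl, and its paralog Impdh1 at 95.9, 86.8 and 92.9 CPM in sgNDUFS4 and at 89.6, 88.1 and 83.9 CPM in sgControl. In both genes the groups overlapped, with 95% intervals of the log2 fold change from -0.09 to 0.08 and from -0.03 to 0.18. Neighbour centring called Impdh2 lower at -0.14 (adjusted p = 0.014), and Impdh1 was at -0.03 there (adjusted p = 0.70). Gmps, which completes GMP (chromosome 3, 63976106 to 64022579), averaged 224 ± 4.91 CPM in sgNDUFS4 and 195 ± 8.28 CPM in sgControl (SD, n = 3 each) and rose by 0.20 (limma adjusted p = 0.00012). Its neighbours had a median of 0.33, above its own change, and neighbour centring called Gmps lower at -0.13 (adjusted p = 0.014). Adss, which leads to AMP, averaged 92.5 ± 2.67 CPM in sgNDUFS4 and 100.1 ± 5.42 CPM in sgControl (SD, n = 3 each) and did not pass (log2 fold change -0.11, limma adjusted p = 0.061), although TMM scaling called it lower at -0.17 (adjusted p = 0.0059).

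Hprt, which salvages hypoxanthine and guanine onto PRPP (chromosome X, 52988137 to 53021659), showed the largest change of the set. It was at 71.8, 69.1 and 72.0 CPM in sgNDUFS4, against 112, 109 and 108 CPM in sgControl, and fell by 0.62 (SE 0.047, limma adjusted p = 3.2e-11). Its surroundings were lower still, with a median of -0.78 over the 50 nearest tested genes, and relative to them Hprt was higher by 0.18 (adjusted p = 0.0068). Without Hprt, 9 members rose and 12 fell.

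Of the 3 enzymes of UMP synthesis, 1 fell and 2 did not pass. Cad, which carries the entry activities in 1 polypeptide, was at 448, 442 and 419 CPM in sgNDUFS4 and at 457, 441 and 399 CPM in sgControl, so the groups overlapped (95% interval of the log2 fold change -0.07 to 0.10, limma adjusted p = 0.77). Dhodh, the step that reduces ubiquinone, averaged 40.1 ± 1.27 CPM in sgNDUFS4 and 39.1 ± 2.59 CPM in sgControl (SD, n = 3 each), also with overlap (95% interval -0.10 to 0.18, limma adjusted p = 0.67). Umps, which finishes UMP, averaged 169 ± 2.32 CPM in sgNDUFS4 and 181 ± 6.55 CPM in sgControl (SD, n = 3 each) and fell by 0.10 (limma adjusted p = 0.039), a call lost in 5 of the 6 fits that leave out a library. After neighbour centring Umps was at -0.19 (adjusted p = 0.0015). In the branch to CTP, Ctps was at 112, 119 and 117 CPM in sgNDUFS4, against 139, 130.4 and 123 CPM in sgControl, and fell by 0.17 (limma adjusted p = 0.0043), but was at -0.12 after neighbour centring (adjusted p = 0.068). Ctps2, its paralog on chromosome X, was at 17.2, 18.4 and 21.004 CPM in sgNDUFS4 and at 18.6, 16.7 and 19.1 CPM in sgControl, with overlap (95% interval -0.15 to 0.26, limma adjusted p = 0.69). Cmpk1, the UMP and CMP kinase, averaged 41.6 ± 2.05 CPM in sgNDUFS4 and 36.6 ± 1.996 CPM in sgControl (SD, n = 3 each) and rose by 0.18 (limma adjusted p = 0.030), a call lost under TMM scaling at 0.12 (adjusted p = 0.14).

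At 5 steps the set holds a pair of isozymes. Per kilobase of annotated exon, Shmt2 averaged 189.5 ± 10.0 CPM per kb in sgNDUFS4 and 231 ± 7.01 CPM per kb in sgControl, far above Shmt1 at 16.2 ± 1.68 CPM per kb in sgNDUFS4 and 15.9 ± 1.34 CPM per kb in sgControl (SD, n = 3 each). The ratio of Shmt2 to Shmt1 CPM was 9.25, 8.94 and 10.0 in sgNDUFS4, against 10.8, 12.3 and 11.9 in sgControl, without overlap. For Prps1 to Prps2 it was 2.61, 2.74 and 2.38 in sgNDUFS4, against 2.94, 3.87 and 3.86 in sgControl, again without overlap. The ratio of Ctps to Ctps2 was 6.53, 6.48 and 5.59 in sgNDUFS4 and 7.46, 7.79 and 6.43 in sgControl, and that of Impdh1 to Impdh2 was 0.442, 0.401 and 0.469 in sgNDUFS4 and 0.412, 0.432 and 0.397 in sgControl, both with overlap. The ratio of Mthfd2 to Mthfd2l was 1137, 913 and 339.5 in sgNDUFS4 and 249, 251 and 287 in sgControl, without overlap and with few reads in the denominator. Exact two-sided permutation tests on the log2 ratios, adjusted over the 5 pairs, gave 0.17 for Shmt2 to Shmt1, Prps1 to Prps2 and Mthfd2 to Mthfd2l, 0.38 for Ctps to Ctps2 and 0.40 for Impdh1 to Impdh2, where 3 libraries against 3 cannot give an unadjusted p below 0.10.

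**Figure D3:**
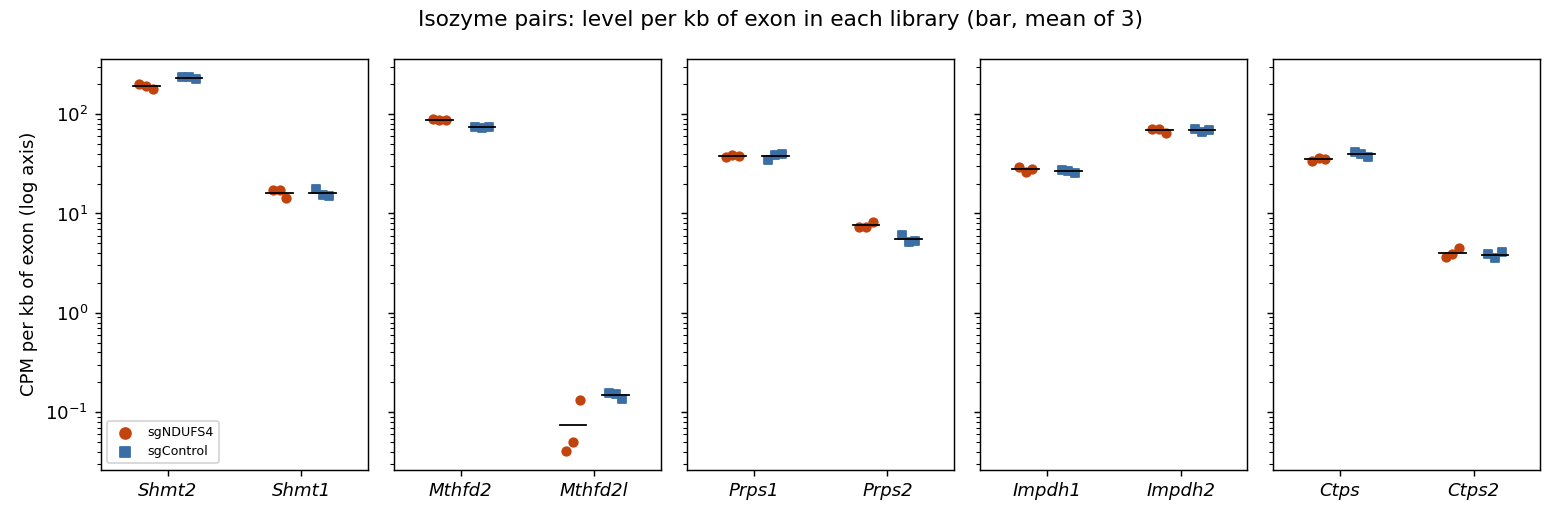
Each point is a library, with its level in CPM per kb of annotated exon on a shared log axis (y axis), for the 5 isozyme pairs (x axis). Orange circles are sgNDUFS4, blue squares sgControl and black bars the means of 3, and in each pair the ordering of the isozymes is the same in both groups.

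Across the set, Phgdh had the highest level per kilobase, at 316 ± 3.08 CPM per kb in sgNDUFS4 and 267 ± 5.19 CPM per kb in sgControl, followed by Shmt2. In sgNDUFS4 Mat2a at 92.4 ± 1.98, Ahcy at 89.8 ± 3.67, Psat1 at 89.1 ± 1.83, Mthfd2 at 87.4 ± 1.07 and Paics at 86.6 ± 2.35 CPM per kb (SD, n = 3 each) followed Shmt2, and neighbours in that order did not differ beyond their spread. In sgControl the next were Ahcy at 123 ± 4.51, Psat1 at 101 ± 1.26 and Paics at 95.7 ± 5.02 CPM per kb, the last pair differing by no more than the SD of Paics. Replicate libraries agreed closely, with coefficients of variation of 0.976% to 10.4% over the members tested.

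Genes that feed or drain these routes were listed by function, 85 in all, of which 69 were tested. Of these, 20 rose, 20 fell and 29 did not pass, that is 29.0% in each direction, where 31.8% of all genes tested rose and 20.3% fell, and the median log2 fold change was -0.01. With TMM scaling 15 rose and 27 fell, where 2756 of all 11063 genes tested rose and 2850 fell. Polyamine synthesis, which uses S-adenosylmethionine, had Odc1 at 605 ± 20.8 CPM in sgNDUFS4 and 756 ± 29.3 CPM in sgControl, Srm at 182 ± 9.68 CPM in sgNDUFS4 and 229.5 ± 20.5 CPM in sgControl, and Mtap, which recycles its by-product, at 191 ± 3.30 CPM in sgNDUFS4 and 238 ± 5.22 CPM in sgControl (SD, n = 3 each). These 3 fell, by 0.32, 0.33 and 0.31 on the log2 scale (limma adjusted p of 4.6e-06 or less). Amd1, the S-adenosylmethionine decarboxylase of the same route, was at 98.9 ± 2.32 CPM in sgNDUFS4 and 83.2 ± 1.18 CPM in sgControl (SD, n = 3 each) and rose by 0.25 (limma adjusted p = 8.4e-05), a call lost after neighbour centring at 0.10 (adjusted p = 0.094). Sms, spermine synthase, did not pass (log2 fold change -0.23, limma adjusted p = 0.051). In this list of 14 methionine cycle, transsulfuration and polyamine genes, 10 were tested, 3 fell and 1 rose.

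Purine salvage and interconversion had 7 rises and 5 falls among 14 genes tested. Ada, adenosine deaminase, was at 8.13, 9.28 and 8.56 CPM in sgNDUFS4, against 14.8, 18.6 and 19.1 CPM in sgControl. The groups lay far apart, and Ada fell by 0.97 (limma adjusted p = 2.2e-07). Ampd2, AMP deaminase, rose by 0.37 (limma adjusted p = 9.8e-08) among neighbours with a median of 0.30, and was at 0.10 after centring (adjusted p = 0.091). Pyrimidine salvage and interconversion had 5 rises and 4 falls among 13 tested. Uprt, on chromosome X, was at 3.41, 3.26 and 4.16 CPM in sgNDUFS4, against 14.7, 14.8 and 15.4 CPM in sgControl, a fall of 1.92 (limma adjusted p = 1.8e-11) among neighbours with a median of -0.98, and it was at -0.97 after centring (adjusted p = 4.6e-06). The uridine kinase Uck1 fell by 0.37, and the nucleoside diphosphate kinase Nme2, whose paralog Nme1 is close in sequence, rose by 0.42 (limma adjusted p = 5.4e-05 and 2.7e-11).

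Ribonucleotide reductase, which makes deoxynucleotides, had its subunit Rrm2 at 387, 382 and 387 CPM in sgNDUFS4, against 460.3, 457 and 458 CPM in sgControl, a fall of 0.25 (limma adjusted p = 1.2e-07). Samhd1, which breaks deoxynucleotides down, fell by 0.23 (limma adjusted p = 0.00091), and the other four genes of deoxynucleotide supply did not pass. Serine and glycine transport and use had 3 rises and 2 falls among 10 tested, with the transporter Slc1a5 up by 0.27, the sideroflexin Sfxn3 by 0.56 and Amt, of the glycine cleavage system, by 1.09 (limma adjusted p = 0.00010, 1.5e-05 and 0.0028). Amt was low, at 1.94 ± 0.308 CPM in sgNDUFS4 and 0.676 ± 0.390 CPM in sgControl (SD, n = 3 each). The 2 falls were Gcsh (-0.31) and Dld (-0.12), also of the glycine cleavage system (limma adjusted p = 0.0067 and 0.0076). Gldc, the decarboxylase of that system, was at 0 CPM in every library. Folate transport and handling had 2 rises and 2 falls among 10 tested, the folate transporter Slc46a1 (-0.56), the hydrolase Ggh (-0.24) and Aldh1l1 (0.27) having the smallest p-values (limma adjusted p = 0.019, 0.022 and 0.015). Each of these 3 calls was lost in at least 2 of the 6 fits with a library left out. Slc29a1, the one nucleoside transporter tested, fell by 0.15 (limma adjusted p = 0.012), a call lost in 3 of those 6 fits.

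**Figure D4:**
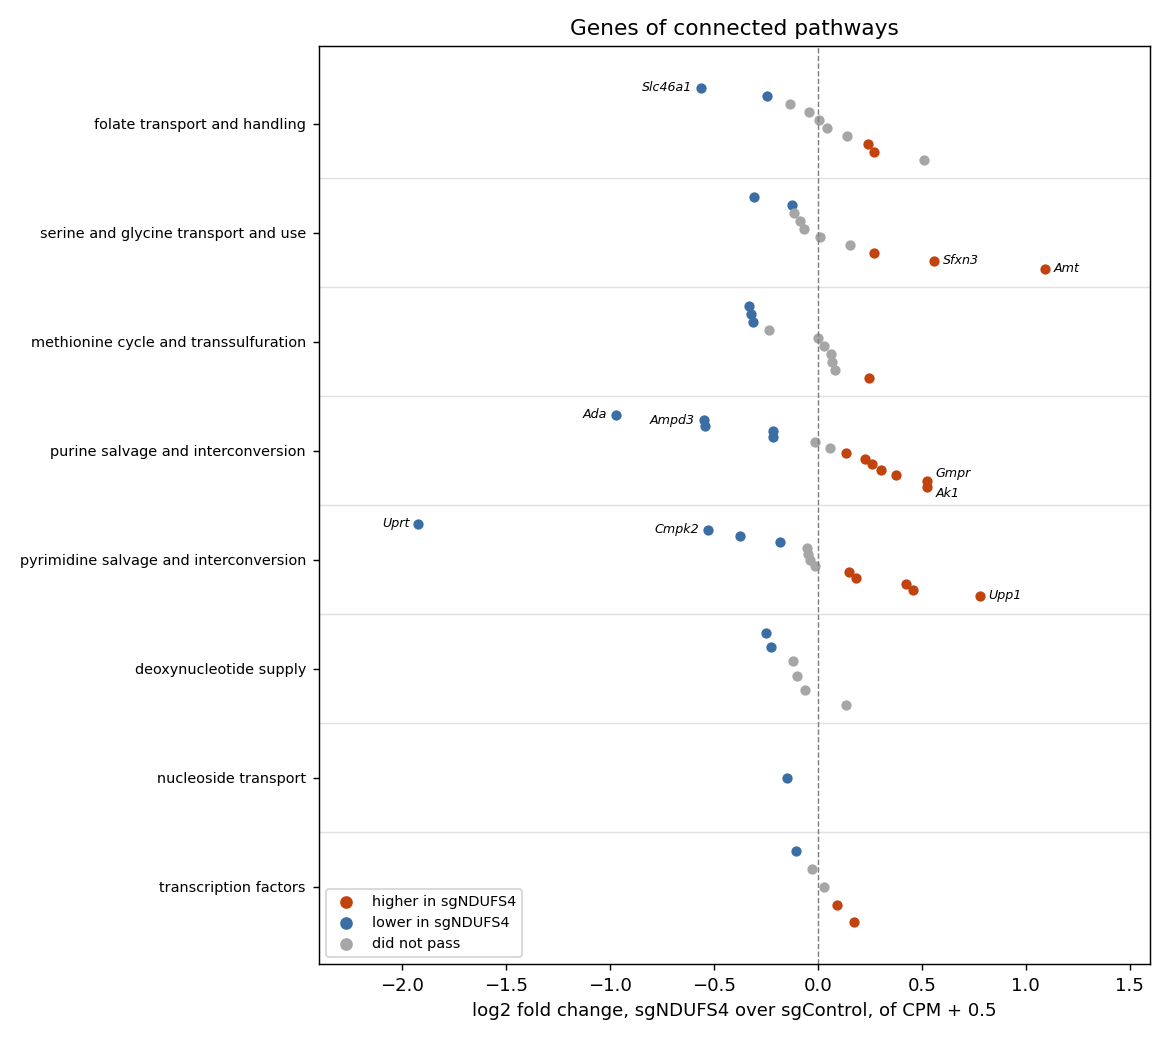
Each point is 1 of 69 tested genes of connected pathways, placed by its log2 fold change of CPM + 0.5, sgNDUFS4 over sgControl (x axis), within its functional list (y axis). Orange marks rises, blue falls and grey genes that did not pass, and most called genes with absolute values of 0.5 or more are named, from Uprt at -1.92 to Amt at 1.09.

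Of 5 transcription factors listed for these routes, 2 rose, 1 fell and 2 did not pass. Atf4, which drives serine and folate genes under stress, was at 447 ± 12.9 CPM in sgNDUFS4 and 456 ± 5.20 CPM in sgControl (SD, n = 3 each) and did not pass (log2 fold change -0.03, limma adjusted p = 0.44). After neighbour centring it was called higher at 0.19 (adjusted p = 0.00015). Myc, a driver of nucleotide synthesis genes, was at 242, 248 and 238 CPM in sgNDUFS4, against 215, 207 and 224 CPM in sgControl, and rose by 0.17 (limma adjusted p = 0.00034), or by 0.27 after neighbour centring (adjusted p = 1.5e-05). Nfe2l2 fell by 0.11 and Trp53 rose by 0.09 (limma adjusted p = 0.032 and 0.037), and both calls were lost with single libraries left out. The call of Trp53 was also lost under TMM scaling at 0.03 (adjusted p = 0.48), and Trp53 was at -0.07 after neighbour centring (adjusted p = 0.18).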

How the data were processed

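RNA was measured in 6 libraries of B16-BL6 cells, 3 sgNDUFS4 and 3 sgControl, by paired-end sequencing without strand, per the labels' protocols. The authors deposited 1 table of CPM values per gene symbol, and the columns were assigned to groups by their names. The submitters' processing notes name HISAT2 and GRCm38. For the read counter and its annotation, no name is given in the sources used here. Dividing each column by its step of 1 read gave whole numbers within 0.01 for 99.98% to 100% of values, so reads in genes were recovered for the count tests. A floor of 3 reads and the limits drawn from it cover counting error only.

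Log2(CPM + 0.5) was fitted with limma 3.58.1 (with trend, R 4.3.3) for genes whose mean CPM reached 1, with p-values adjusted over all genes tested and 95% intervals. edgeR 4.0.16 and DESeq2 1.42.0 were run on the recovered reads as alternatives, and edgeR called 2723 genes higher and 2860 lower in sgNDUFS4. For neighbour centring, log2(CPM + 0.5) of each gene was first expressed as a deviation from that gene's mean over the 6 libraries. The median deviation of the 50 nearest tested genes on the chromosome was then subtracted in each library. Positions come from GENCODE M21 (GRCm38) by symbol, which placed 22232 of 22535 rows, and promoter windows from RefSeq (GRCm38.p6). There were 25 symbols that occurred more than once. These were given no position and were left out of the lists of named genes. Their rows stayed among all genes tested where the mean reached 1 CPM. Levels per kb divide CPM by the annotated exon length. The limma fit was tested on simulated reads without changes shared by chromosomal neighbours, so that test does not cover such changes.

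The members, the lists of related genes and the markers were chosen with earlier results of these data known. All members were named. CPM per library is given for members called with an absolute log2 fold change of at least 0.2, for isozyme pairs and for the highest not called member of a role group. From each related list, up to 3 called genes with the smallest p were named. Atf4, Amd1, Sms, Gcsh, Dld and Gldc, and the library values of Ctps and Mtr beyond that rule, were chosen after their values were seen. Protein sequences were not analysed here, and a few genes that these rules select are not reported here.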

Additional observations from a re-analysis of the deposited data

How the results depend on the processing

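Of the 33 genes tested, 17 kept their direction where called and their side of the threshold under all 15 alternatives: 11 called (Mthfd2, Prps2 and Pfas higher, and Psat1, Mthfd1, Shmt2, Aldh1l2, Ahcy, Tyms, Paics and Atic lower) and 6 not called. Neighbour centring changed most. It left 5 members higher and 14 lower, and 11 related genes higher and 23 lower, where 2350 of all genes were called higher and 2383 lower. Rises were then 26.3% of member calls and 49.7% of calls over all genes. Neighbour centring turned the log2 fold change of Phgdh to -0.045, Shmt1 to -0.21, Prps1 to -0.26, Adsl to 0.060, Gmps to -0.13 and Hprt to 0.18. The cause was not tested. With TMM scaling, edgeR and DESeq2 alike, 6 members rose and 15 fell, so that 28.6% of member calls were rises, against 40.9% without. Over all genes, rises were 49.2% of calls with TMM scaling and 61.1% without. Leaving out single libraries gave 6 to 8 members higher and 12 to 14 lower, 14 to 20 related genes higher and 17 to 19 lower, and 3009 to 3401 of all genes higher and 1952 to 2184 lower. Psph lost its call without sgNDUFS4 replicate 1 or 3 or sgControl replicate 1 or 2 (0.19 to 0.21), Cmpk1 without sgNDUFS4 replicate 1 or 2 or sgControl replicate 1 or 3 (0.15 to 0.17), Gart without sgNDUFS4 replicate 1 (0.09) and Umps without any library but sgControl replicate 3 (-0.11 to -0.07), and Adss was called lower without sgControl replicate 3 (-0.16). Other pseudocounts and filters changed no member's call. Without a filter Mthfd2l was tested and called lower at -0.62 (limma adjusted p = 0.041), from 7 to 24 reads a library, too few for a firm value. For the ratio of Mthfd2 to Mthfd2l, the log2 difference of sgNDUFS4 minus sgControl was 1.43, or 0.87 with 0.5 CPM added to both genes.

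Deviations of same-numbered libraries from their group means correlated at 0.056, 0.012 and 0.097, and 2 of the 3 numbers correlated best with their own. No clear pairing was seen, but 3 libraries a group are too few to decide whether the numbers pair the libraries. With a replicate block 9 members rose and 14 fell, 22 related genes rose and 21 fell, and 3632 of all genes rose and 2309 fell. Adss was the one member whose call the block changed (-0.11, limma adjusted p = 0.046).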

Other observations

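Among the members, 6 were taken as known targets of ATF4 in mammalian cells, a list that may be incomplete: Phgdh, Psat1, Psph, Shmt2, Mthfd2 and Aldh1l2. This subset was chosen after the values were seen, so its counts are a description. Phgdh, Psph and Mthfd2 were higher in sgNDUFS4, and Psat1, Shmt2 and Aldh1l2 were lower, with log2 fold changes from -0.29 to 0.24. Over all genes tested, 31.8% rose and 20.3% fell. The call of Phgdh was lost after neighbour centring and that of Psph under TMM scaling. Those of Mthfd2, Psat1, Shmt2 and Aldh1l2 held under all 15 alternatives.

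The summed CPM of the 6 enzymes from PRPP to IMP was 1489, 1475 and 1442 in sgNDUFS4 and 1622, 1587 and 1573 in sgControl, and that of the 3 serine synthesis enzymes was 1209, 1189 and 1183 in sgNDUFS4 and 1111, 1101 and 1138 in sgControl. The groups did not overlap in either sum. From PRPP to IMP the sum averaged 1469 CPM in sgNDUFS4 and 1594 CPM in sgControl, and Atic 355 and 487 CPM. The gap between the groups in that sum was no larger than the gap in Atic alone. Among the other enzymes of the route, Gart and Pfas rose, Paics and Adsl fell and Ppat did not pass. The sum over serine synthesis was mostly Phgdh, whose call was lost after neighbour centring.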
